A study of Mus musculus with 4 samples.

Results

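The transforming growth factor beta (TGF-beta) genes examined here were the ligands Tgfb1, Tgfb2 and Tgfb3, the receptors Tgfbr1, Tgfbr2 and Tgfbr3, the signal transducers Smad2, Smad3 and Smad7, and Tgfbi, a matrix protein named for its induction by TGF-beta. They were found as every array feature that the platform annotation assigns to exactly 1 gene, that gene being one of these 10. This gave 23 of 45220 features and 9 genes of the 19087 named on the array, and Smad7 is not analysed here. Of these features, 10 were repeated spots of a single Tgfb1 probe and were combined, which left 14 probe rows of 43154.

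The 4 samples came from tumours that grew from MDA-MB231 cells, a line of human triple-negative breast cancer, in immunodeficient mice. All groups carried the same tumour line. For 2 of the samples the mice were given 40 mg/kg/day of sunitinib, which inhibits the tyrosine kinase receptors for VEGF and PDGF among others. For the other 2 samples the mice were given vehicle. The labels give no mouse strain, sex, age or sampling time, although the series title speaks of withdrawal of the drug, and they do not say whether each sample was a separate animal. The probes are mouse probes, which read the host cells within the tumour, and whether human tumour transcripts also bound to them was not tested. Each slide carried 1 sunitinib array and 1 vehicle array (replicate 1 of both groups on slide 1, replicate 2 of both on slide 2). All values are log2 intensities, already normalized between arrays by the authors, and a difference is sunitinib minus vehicle on that scale. Over all features the 2 sunitinib arrays correlated at 0.980 and the 2 vehicle arrays at 0.984, and the arrays of a slide at 0.971 and 0.970. Across slides, sunitinib replicate 1 and vehicle replicate 2 correlated at 0.979, and sunitinib replicate 2 and vehicle replicate 1 at 0.970.

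TGF-beta ligands are secreted bound to a latency peptide and are stored in the matrix until they are released. The active dimer binds the type II receptor Tgfbr2, which phosphorylates the type I receptor Tgfbr1. Tgfbr1 in turn phosphorylates Smad2 and Smad3, which enter the nucleus with Smad4, while Smad7 inhibits the receptors. In tumour stroma the pathway is known for driving matrix production by fibroblasts, for shaping vessel walls and for restraining immune cells.

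None of the 14 TGF-beta probe rows passed after adjustment over all probe rows (limma, Benjamini-Hochberg adjusted p = 0.352 or more), where 1 row of the whole array passed (0.00232%). That row belonged to Xist, the noncoding RNA of the inactive X chromosome, which read 8.97 and 8.96 in sunitinib tumours against 12.19 and 12.26 in vehicle tumours, so that its level divided the 4 arrays just as treatment did. Its difference of -3.26 had a limma adjusted p = 0.00997. Without 1 array the difference was -3.295 to -3.225 with an adjusted p of 0.417 to 0.635, and a slide block gave an adjusted p of 0.54, or 0.0153 with the positional trend removed as well. Eif2s3y, a gene of the Y chromosome named after its values were seen, ran the other way, with 10.21 and 10.02 in sunitinib tumours against 8.46 and 8.58 in vehicle tumours (difference 1.595, SE 0.11, limma adjusted p = 0.295). It passed under 2 alternatives (adjusted p of 0.0224 with a trended, robust prior and 0.0448 with the positional trend removed). The 5 dim rows of Uty and Kdm5d, also on the Y chromosome, differed by 0.095 to 0.295. A difference in host sex therefore cannot be told apart from treatment here, and this holds for every difference of the TGF-beta genes. At an unadjusted p under 0.05 stood 3 of the 14 rows, against a background of 13.4%, namely the brightest Tgfbr2 probe and Tgfb3, both lower with sunitinib, and Tgfbi, higher with sunitinib. The groups did not overlap in 7 of the 14 rows, against 47.1% of all rows, with 4 rows lower (background 21.6%) and 3 higher (background 25.5%). The difference had the same sign on both slides in 8 of the 14, against 58.6% of all rows. The shares for non-overlap and for sign were therefore close to those of the array at large. The median difference was -0.055 over the 14 rows, against 0.005 over all rows, and -0.15 over the brightest probes of the 9 genes, against 0.005 over the brightest probes of all genes.

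The upstream sequences of Tgfbr2 and Tgfbi are shown. Among the genes with a matched upstream window, these 2 had differences of opposite sign, no overlap between the groups and an unadjusted limma p under 0.05. The lines give the 250 bases before the annotated start of each gene, 5′ to 3′ on the gene's own strand, from RefSeq for GRCm38.p6, with capitals marking the Smad motif CAGAC, which reads GTCTG where it lies on the opposite strand, and the GC box GGGCGG, searched on both strands likewise. They lie at chr9:116175364-116175613 (minus strand) and chr13:56609336-56609585 (plus strand).
Tgfbr2: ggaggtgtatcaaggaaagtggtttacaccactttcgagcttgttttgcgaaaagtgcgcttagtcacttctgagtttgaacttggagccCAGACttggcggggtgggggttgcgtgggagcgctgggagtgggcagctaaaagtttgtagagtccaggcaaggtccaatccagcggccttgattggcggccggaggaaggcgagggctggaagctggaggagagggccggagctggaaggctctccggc
Tgfbi: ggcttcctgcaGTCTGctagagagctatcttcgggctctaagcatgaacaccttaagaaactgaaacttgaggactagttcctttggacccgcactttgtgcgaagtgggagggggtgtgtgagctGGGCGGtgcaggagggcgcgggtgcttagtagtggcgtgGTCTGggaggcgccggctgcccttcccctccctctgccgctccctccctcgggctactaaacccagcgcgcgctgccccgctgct
CAGAC was present 1 time upstream of Tgfbr2 and 2 times upstream of Tgfbi. Of 32851 windows of the same length in the table, 42.2% held it. GGGCGG was present 0 times upstream of Tgfbr2 and 1 time upstream of Tgfbi, and 32.7% of windows held it. The 2 motifs share no stretch in either sequence. Of the 9 genes 6 were matched and read in this way, and the windows of Tgfb1, Tgfb2, Tgfbr1 and Smad3 are not printed. No window was matched for Smad2, Tgfbr3 and Tgfb3, although Tgfb3 had a larger difference without overlap (-0.63).

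**Figure D1:**
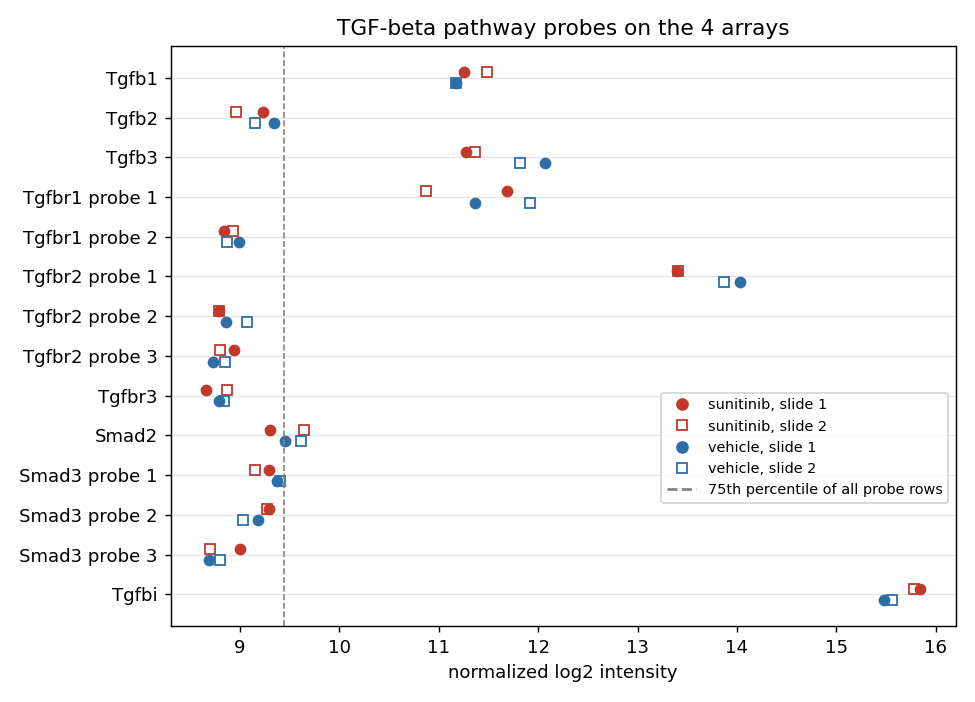
Normalized log2 intensity (horizontal axis) of the 14 TGF-beta probe rows on each of the 4 arrays, with sunitinib in red above vehicle in blue, slide 1 as filled circles and slide 2 as open squares. Tgfb3 and the brightest Tgfbr2 probe lie lower in both sunitinib arrays and Tgfbi lies higher, while 8 rows lie at or below the dashed line, the 75th percentile of all probe rows (9.44).

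Among the ligands, Tgfb3, the isoform needed for palate closure in mouse embryos (GRCm38.p6, chromosome 12, 86056743 to 86079041), read 11.27 and 11.36 in sunitinib tumours, against 12.07 and 11.82 in vehicle tumours. Both sunitinib arrays lay below both vehicle arrays, and the gap between the groups was wider than the gap between the arrays of either group. The means were 11.32 ± 0.06 with sunitinib and 11.95 ± 0.18 with vehicle (SD, n = 2 each). The difference was -0.63 (SE 0.12, 95% interval -0.93 to -0.33), which corresponds to 64.6% of the vehicle intensity, with an unadjusted limma p of 0.00296 and an adjusted p of 0.352. Only 0.677% of all probe rows had a p as small. Within slides the difference was -0.80 on slide 1 and -0.46 on slide 2. With the positional trend removed it was -0.67 (SE 0.11, limma adjusted p = 0.331). In bulk tumour RNA, fewer cells of a type and less RNA per cell cannot be told apart.

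Tgfb1, the isoform with the widest expression in immune and stromal cells and in platelets (chromosome 7, 25687002 to 25705077), was the one member measured by repeated spots. Taking the median of its 10 spots, it read 11.26 and 11.49 in sunitinib tumours, against 11.18 and 11.17 in vehicle tumours. Sunitinib was higher on both arrays, but the sunitinib arrays differed from each other by more than sunitinib replicate 1 differed from vehicle. The difference was 0.20 (SE 0.11, 95% interval -0.08 to 0.47, limma adjusted p = 0.449), with 0.08 on slide 1 and 0.32 on slide 2. It shrank to 0.08 without sunitinib replicate 2 and widened to 0.31 without sunitinib replicate 1, so that sunitinib replicate 2 supplied most of it.

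The Tgfb1 spots show how far spots of 1 probe can part on 1 array. On slide 2 all 10 spots read higher with sunitinib, by 0.05 to 0.38. On slide 1 7 spots read higher and 3 lower, with single-spot differences from -1.14 to 0.39. Averaged over both slides, 2 spots were lower with sunitinib. The mean difference over the 10 spots was 0.11, smaller than the difference taken from the spot medians. The spread among spots was 0.26 and 0.08 on sunitinib arrays 1 and 2, against 0.27 and 0.06 on vehicle arrays 1 and 2 (SD over 10 spots). The spot at the low end read 10.61 on sunitinib array 1 and 11.75 on vehicle array 1, although the spot medians of these arrays were 11.26 and 11.18. The next lowest, at -0.72, read 10.85 on sunitinib array 1 and 11.57 on vehicle array 1. The median of the features around these 2 spots differed by -0.13 and -0.11 on slide 1, far less than the spots did. Every other TGF-beta row rests on 1 spot per array, and among its differences on slide 1 none was larger in size than the lowest Tgfb1 spot. On slide 2, where no Tgfb1 spot differed by more than 0.38, some rows differed by more. These were Tgfb3 (-0.46), the brightest Tgfbr2 probe (-0.46) and the brighter Tgfbr1 probe (-1.05).

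**Figure D2:**
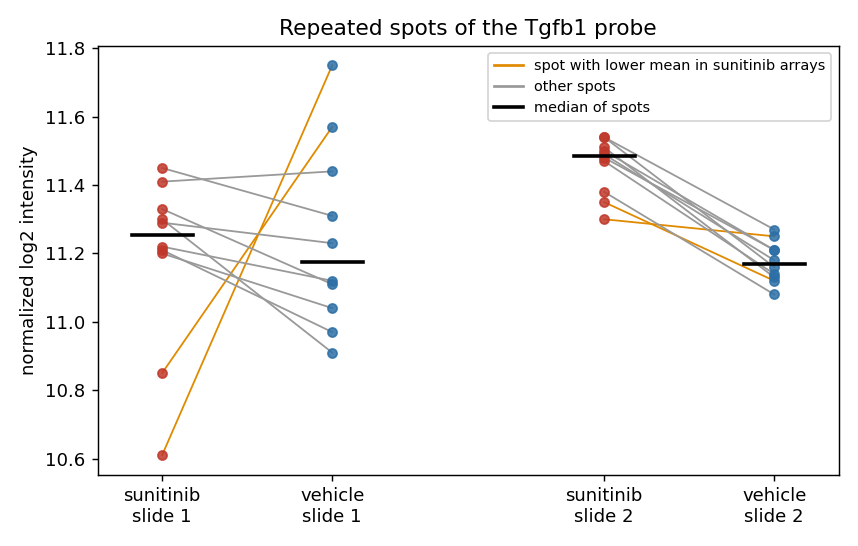
Normalized log2 intensity (vertical axis) of the 10 repeated Tgfb1 spots on each array, sunitinib left of vehicle within each slide, with a line joining the same spot and a black bar at the median. On slide 2 all 10 spots lie higher with sunitinib, and on slide 1 the 2 orange spots read 10.61 and 10.85 in the sunitinib tumour against 11.75 and 11.57 in the vehicle tumour.

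Tgfb2, the ligand that relies on the co-receptor Tgfbr3 for efficient binding (chromosome 1, 186622787 to 186709697), read 9.23 and 8.96 in sunitinib tumours, against 9.34 and 9.15 in vehicle tumours. It was dim, at the 68.8th percentile of all rows, and the groups overlapped. The difference was -0.15 (SE 0.13, 95% interval -0.49 to 0.19, limma adjusted p = 0.613), with -0.11 on slide 1 and -0.19 on slide 2.

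Of the receptors, Tgfbr2, the ligand-binding type II kinase (chromosome 9, 116087695 to 116175363), was measured by 3 probes. Its brightest probe, assigned to NM_009371, read 13.40 and 13.41 in sunitinib tumours, against 14.03 and 13.87 in vehicle tumours. The sunitinib arrays were nearly equal and lay clear of both vehicle arrays. The difference was -0.55 (SE 0.09, 95% interval -0.79 to -0.31), or 68.5% of the vehicle intensity, and it had the smallest p of the TGF-beta rows (unadjusted limma p of 0.0022, adjusted p = 0.352). It was -0.63 on slide 1 and -0.46 on slide 2, and the features around it on the array (a window of 21 by 21) had median differences of -0.12 and -0.11. With that positional trend removed, it was -0.43 (SE 0.10, adjusted p = 0.39).

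The other 2 Tgfbr2 probes were dim. The probe assigned to NM_029575, the other RefSeq transcript of the gene, read 8.79 on both sunitinib arrays, against 8.86 and 9.07 on the vehicle arrays. Its difference of -0.18 became 0.01 once the positional trend was removed, and the features around it differed by -0.13 and -0.23 on the 2 slides. The probe assigned to AK090393 read 8.94 and 8.80 in sunitinib tumours, against 8.73 and 8.85 in vehicle tumours, a difference of 0.08 with overlapping groups. Averaged over the 3 probes, the gene differed by -0.21 (limma adjusted p = 0.372).

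Tgfbr1, the type I kinase that phosphorylates Smad2 and Smad3 (chromosome 4, 47353222 to 47414926), gave no common direction. Its brighter probe read 11.69 and 10.87 in sunitinib tumours, against 11.36 and 11.92 in vehicle tumours. Sunitinib was higher by 0.33 on slide 1 and lower by 1.05 on slide 2 (difference -1.05), and the array of sunitinib replicate 2 was the lowest of the 4. The overall difference was -0.36 (SE 0.33, 95% interval -1.21 to 0.49, limma adjusted p = 0.626). Without sunitinib replicate 2 it was 0.05, and without sunitinib replicate 1 it was -0.77. The dimmer probe, assigned to the same transcript, read 8.84 and 8.93 in sunitinib tumours, against 8.99 and 8.87 in vehicle tumours.

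Tgfbr3, betaglycan, a co-receptor that presents the ligands (chromosome 5, 107106567 to 107289629), read 8.66 and 8.87 in sunitinib tumours, against 8.79 and 8.84 in vehicle tumours. These values lie near the median of all rows (8.86), and the groups overlapped. The difference was -0.05 (SE 0.10, 95% interval -0.32 to 0.22).

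**Figure D3:**
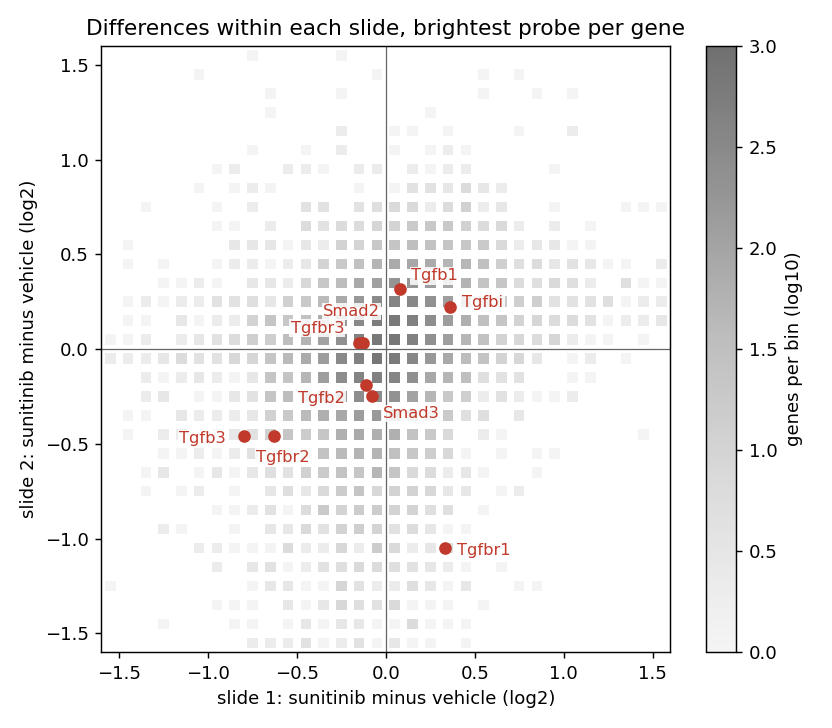
Difference between sunitinib and vehicle (log2) on slide 1 (horizontal axis) and slide 2 (vertical axis) for the brightest probe of each TGF-beta gene (red) over all 19087 genes (grey, shaded by the log10 number of genes per bin, axes limited to the central range). Tgfb3 and Tgfbr2 are negative on both slides, Tgfbi and Tgfb1 positive on both, and Tgfbr1 is at 0.33 on slide 1 and -1.05 on slide 2.

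The transducers gave small differences. Smad2 (chromosome 18, 76241090 to 76311748) read 9.30 and 9.64 in sunitinib tumours, against 9.45 and 9.61 in vehicle tumours. The groups overlapped, and the difference was -0.06 (SE 0.14, 95% interval -0.43 to 0.31, limma adjusted p = 0.866). Smad3 (chromosome 9, 63646766 to 63757994) had 3 dim probes, which did not point the same way. The brightest read 9.29 and 9.15 in sunitinib tumours, against 9.37 and 9.40 in vehicle tumours, a difference of -0.17 (SE 0.09, limma adjusted p = 0.452). The second, assigned to BI646741, read 9.29 and 9.27 in sunitinib tumours, against 9.18 and 9.03 in vehicle tumours, a difference of 0.18 (SE 0.09). Both pairs of groups stood apart without overlap and in opposite directions. Around the second probe the features differed by 0.12 and 0.22 on slides 1 and 2, and with the positional trend removed its difference was -0.004. With the same trend removed, the difference of the brightest probe was -0.086. The third read 9.00 and 8.70 in sunitinib tumours, against 8.69 and 8.80 in vehicle tumours, and overlapped.

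Tgfbi, the matrix protein induced by TGF-beta (chromosome 13, 56609586 to 56639359), read 15.84 and 15.78 in sunitinib tumours, against 15.48 and 15.56 in vehicle tumours. Both sunitinib arrays lay above both vehicle arrays, by more than the arrays of a group differed from each other. The difference was 0.29 (SE 0.08, 95% interval 0.07 to 0.51), or 122% of the vehicle intensity (unadjusted limma p of 0.0187, adjusted p = 0.352). The unadjusted p was 0.0664 without sunitinib replicate 1, 0.0785 without vehicle replicate 1 and 0.112 with a trended, robust prior. The difference was 0.36 on slide 1 and 0.22 on slide 2, and 0.31 with the positional trend removed (SE 0.09, limma adjusted p = 0.409). These values lie close to the top of the scale, where a value within 0.05 of 16 was taken as saturated. Of the 14 rows Tgfbi is the only gene listed for being induced by the pathway, and the median of 34 other induced genes, given with the pathway, was of the other sign.

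The TGF-beta rows were also counted by brightness, in small numbers, and over the whole array bright rows likewise had such a p more often. Of the 6 TGF-beta rows above the 75th percentile of all rows, 3 had an unadjusted p under 0.05, against 20.8% of all rows that bright. Of the 8 dimmer rows 0 did, against 11.0% of all rows as dim, and their differences lay between -0.18 and 0.18.

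Other genes of the pathway were taken by their brightest probe, and 0 genes of any list passed after adjustment (limma, background 0.00524%). On unadjusted p under 0.05 the background is 6.32% of genes lower and 8.44% higher, and for groups without overlap it is 22.3% lower and 25.9% higher. These shares are over genes of any brightness, and bright rows had such a p more often (20.8%). Of 14 measured genes of latency and activation, 3 had such a p on the lower side and 0 on the higher, 5 were lower without overlap and 1 higher, and the median was -0.16 (-0.18 on slide 1, -0.01 on slide 2). Itgb5, whose product pairs with the alpha v integrin chain, read 14.86 and 14.91 in sunitinib tumours, against 15.29 on both vehicle arrays (difference -0.41, SE 0.08, adjusted p = 0.352). Plg, the gene of plasminogen, a protease precursor that can release the latent ligand, was dim, with 8.75 and 8.78 in sunitinib tumours, against 9.02 and 9.26 in vehicle tumours (difference -0.38, SE 0.11). Nrros, which tethers latent Tgfb1 on myeloid cells, read 13.61 and 13.71 in sunitinib tumours, against 12.90 and 13.45 in vehicle tumours (difference 0.49, SE 0.20). Mmp14, a membrane protease, read 15.16 and 14.04 in sunitinib tumours, against 15.35 and 15.59 in vehicle tumours. Its difference of -0.87 came mainly from slide 2 (-0.19 and -1.55 on slides 1 and 2), and a dimmer probe differed by 0.005.

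Of 20 other ligands of the superfamily, 2 had an unadjusted p under 0.05 and were lower and 0 were higher, with a median of -0.05, and 16 of the 20 were at or below the 75th percentile of rows. Gdf3 and Lefty1, ligands known from the embryo, were among the dim ones, with differences of -0.44 (SE 0.09) and -0.35 (SE 0.09), as was Gdf9, an oocyte factor (-0.44, SE 0.18). Inhba, the activin A subunit, read 11.26 and 12.25 in sunitinib tumours, against 12.96 and 12.35 in vehicle tumours. Its difference was -1.70 on slide 1 and -0.10 on slide 2, so that a single slide carried it. The 11 other receptors, among them those for activins and BMPs, had 0 genes with such a p in either direction, a median of 0.03 and 9 genes with overlapping groups. Endoglin, Eng, a co-receptor of vessel endothelium, read 10.93 and 10.73 in sunitinib tumours, against 10.81 and 10.73 in vehicle tumours, and the type I receptor Acvrl1 read 9.77 and 9.60 with sunitinib and 9.74 and 9.62 with vehicle (both named after their values were seen).

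The 20 other Smads and Smad regulators split, with 1 gene lower and 4 higher at an unadjusted p under 0.05 and a median of -0.01. Smad1, a transducer of BMP signals, read 12.48 and 11.76 in sunitinib tumours, against 12.97 and 13.70 in vehicle tumours. Its difference was -1.22 (SE 0.34, limma adjusted p = 0.352), with -0.49 on slide 1, -1.94 on slide 2 and -0.04 on a second probe. Skil, the gene of SnoN, which represses Smad targets and is itself induced by TGF-beta, read 12.12 and 12.28 in sunitinib tumours, against 11.48 and 11.85 in vehicle tumours. Sunitinib was higher on both arrays, by 0.54 overall (SE 0.15), and by 0.03 on a second probe. Usp15, a deubiquitinase that acts on the type I receptor, differed by 0.32 (SE 0.09), with 5 of its 7 probes higher. Ppm1a, a phosphatase of Smad2 and Smad3, differed by 0.46 (SE 0.16), and its 3 probes ran from -0.24 to 0.46. The common partner Smad4, named after its values were seen, read 11.71 and 11.83 in sunitinib tumours, against 11.93 and 11.90 in vehicle tumours (difference -0.15, SE 0.09), and a second probe differed by 0.05.

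Among 11 measured extracellular antagonists and ligand-binding proteins 3 were lower at that threshold and 0 higher, and the median was 0, with -0.48 on slide 1 and 0.07 on slide 2. Fst, follistatin, which binds activins, read 9.84 and 9.22 in sunitinib tumours, against 10.55 and 10.70 in vehicle tumours (difference -1.10, SE 0.22, limma adjusted p = 0.352). Its difference was -0.71 on slide 1 and -1.48 on slide 2. Biglycan, Bgn, a proteoglycan that binds TGF-beta, read 10.82 and 10.89 in sunitinib tumours, against 12.19 and 11.51 in vehicle tumours, and its second probe differed by 0.09. Fstl3, a relative of follistatin, differed by -0.38 (SE 0.12).

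Of 34 measured genes known to be induced by TGF-beta, 6 had an unadjusted p under 0.05 and were lower, 1 was higher, 15 were lower without overlap and 2 higher, with a median of -0.14. Only 4 of the 34 were at or below the 75th percentile of rows, and of all rows above it 20.8% had such a p in either direction. The median of the 34 was -0.30 on slide 1 and -0.04 on slide 2. Lox, a collagen cross-linking enzyme, read 9.99 and 9.68 in sunitinib tumours, against 11.12 and 10.58 in vehicle tumours. Snai1, a repressor of epithelial genes, read 9.60 and 8.96 in sunitinib tumours, against 10.08 and 9.95 in vehicle tumours (difference -0.74, SE 0.22). Its difference was -0.48 on slide 1 and -0.99 on slide 2. Skil, which is also among the Smad regulators, was the 1 target at that threshold on the higher side. Fstl3, lower at that threshold, is counted both here and among the antagonists. Pmepa1, Tgif1, Ltbp2 and Thbs1 also stand in another pathway list, and Col1a1, Col1a2, Acta2 and Cnn1 in a marker list. The counts and medians of these lists therefore share genes. Ccn2, connective tissue growth factor, a target chosen after its values were seen, read 14.04 and 14.43 in sunitinib tumours, against 14.56 and 14.49 in vehicle tumours (difference -0.29, SE 0.15). Col1a2 read 16 on all arrays, which counts as saturated under the chosen setting, and gives no information on a difference. Col1a1 read 15.9 and 15.875 in sunitinib tumours, against 15.945 and 15.99 in vehicle tumours, close to that setting. Its difference of -0.08 is counted as lower without overlap here and among the fibroblast markers.

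**Figure D4:**
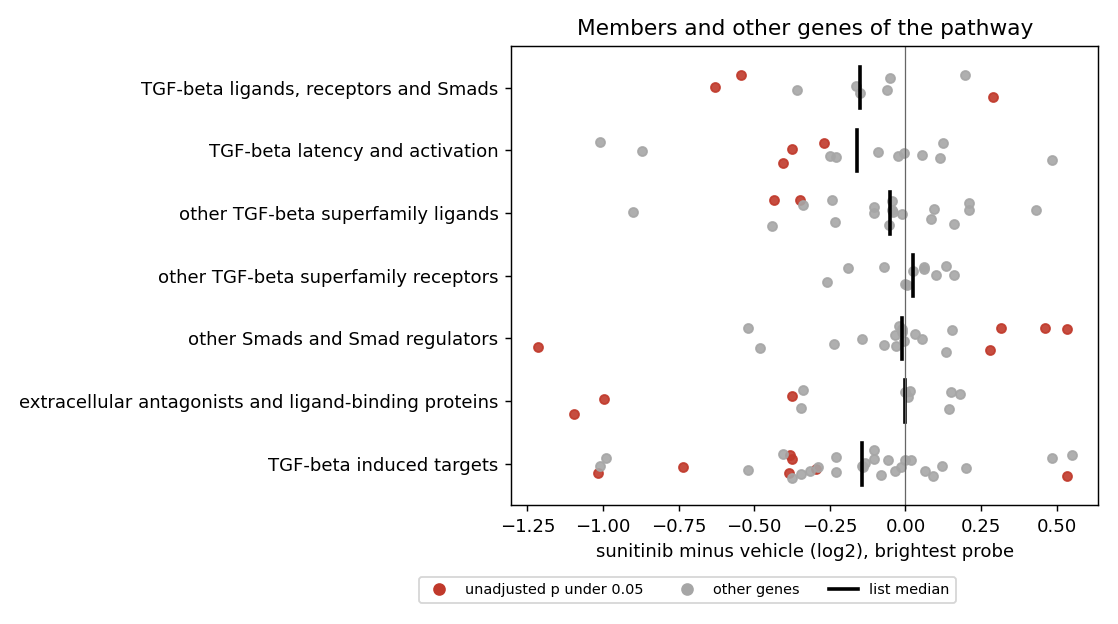
Difference between sunitinib and vehicle (log2, horizontal axis) of the brightest probe of each gene in the TGF-beta list and the 6 other pathway lists, with genes at an unadjusted p under 0.05 in red, other genes in grey and the list median as a black bar. The medians lie between -0.16 and 0.03.

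Markers of the cells that make or receive TGF-beta are given beside these values. For groups without overlap the background is again 22.3% of genes lower and 25.9% higher. Of 10 fibroblast markers 6 were lower without overlap and 0 higher, and their mean log2 level was 12.14 and 12.07 in sunitinib tumours, against 12.64 and 12.22 in vehicle tumours (median difference -0.30, brightest gene Col1a2). The 7 adipocyte markers averaged 10.78 and 10.92 in sunitinib tumours, against 9.74 and 9.54 in vehicle tumours (median 1.19, brightest gene Fabp4, 5 higher without overlap). The 9 pericyte and smooth muscle markers were mixed, with a median of -0.06, 4 lower and 2 higher without overlap, and 3 lower and 0 higher at an unadjusted p under 0.05. Their mean log2 level was 10.75 and 10.52 in sunitinib tumours, against 10.99 and 10.76 in vehicle tumours. Pdgfrb, the brightest of them and a receptor that sunitinib inhibits, read 13.39 and 12.12 in sunitinib tumours, against 14.06 and 14.01 in vehicle tumours (difference -1.28, SE 0.41, limma adjusted p = 0.352). The other 2 at that threshold, named after their values were seen, were Kcnj8 (difference -0.995) and Abcc9 (difference -0.44), subunits of a potassium channel of pericytes. All 3 differed more on slide 2 (-0.67 and -1.89 for Pdgfrb, -0.47 and -1.52 for Kcnj8, -0.16 and -0.72 for Abcc9 on slides 1 and 2). A second Kcnj8 probe differed by -0.29. The 2 higher without overlap were Cnn1 (difference 0.55) and Myh11 (difference 0.125). Of 9 endothelial markers (median 0.03, brightest gene Cldn5) 1 was lower and 3 higher without overlap. The lower one was Vwf, named after its values were seen (difference -0.73, with -0.68 on slide 1 and -0.78 on slide 2). The 3 higher ones, named likewise, were Esam (difference 0.205), Tek (0.18) and Pecam1 (0.112). Of 6 macrophage markers (median -0.07, Lyz2, itself saturated) 1 was lower and 0 higher. The 5 platelet markers had a median of 0 (Pf4), with 1 lower and 1 higher. The skeletal muscle markers, led by Acta1, had a median of 0.09 over 4 genes. All 5 measured lymphocyte markers (median 0.01, Cd3e) and all 5 epidermal markers (0.05, Krt10) were at or below the 75th percentile of rows. Outside the pericyte list, an unadjusted p under 0.05 was reached on the lower side by 3 fibroblast, 1 endothelial and 1 macrophage marker. On the higher side it was reached by 4 adipocyte markers and 1 platelet marker. The part of these cells in the TGF-beta values was not tested.

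The genes most like the leading members across the arrays were sought by the root mean square difference between values centred on each gene's mean, over 4 arrays and 9534 other genes brighter on average than the median gene. Nearest to Tgfbr2 were Hip1 (0.02), Glo1 (0.03) and Exoc1 (0.03). Hip1 read 9.68 and 9.67 in sunitinib tumours, against 10.25 and 10.13 in vehicle tumours. Nearest to Tgfb3 were Tpd52l2 (0.02), Eogt (0.04) and Mrps10 (0.05). With 4 arrays such a match describes these arrays only.

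Each difference of a TGF-beta gene was recomputed under 15 alternatives, several of which cannot alter a difference. Tgfb3 stayed between -0.76 and -0.51, Tgfbr2 between -0.63 and -0.21, Tgfbi between 0.25 and 0.33 and Tgfb1 between 0.08 and 0.31, each with its sign unchanged, and their adjusted limma p was 0.282 or more in each of these. The lowest size for Tgfbr2 came from averaging its probe with the 2 dim ones.

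**Figure D5:**
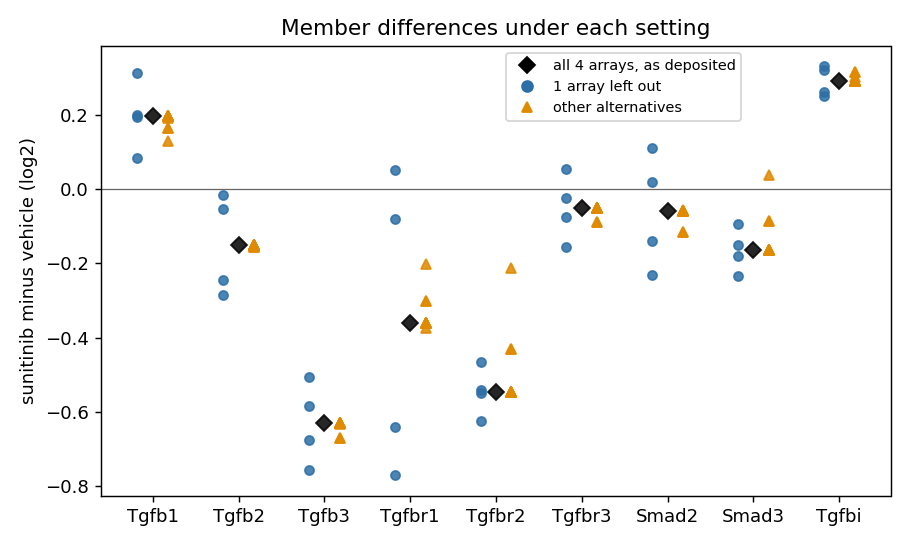
Difference between sunitinib and vehicle (log2, vertical axis) for the brightest probe of each TGF-beta gene, with all 4 arrays as deposited (black diamonds), with 1 array left out (blue circles) and under the other alternatives (orange triangles). Tgfb3, Tgfbr2 and Tgfb2 stay below 0 and Tgfb1 and Tgfbi above it, while Tgfbr1, Tgfbr3, Smad2 and Smad3 cross it in at least 1 setting.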

How the data were processed

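The 4 RNA samples were labelled with Cy3 and each was hybridised alone to an Agilent mouse array, per the labels. The authors deposited 1 log2 value per feature and array. That scale is inferred from their range (6.75 to 16.34), the submitters' processing notes name limma without a version, and how background was corrected and arrays were normalized is not given in the sources used here. Upper quartiles were 9.47 to 9.49 on every array, so the values were used as deposited. Precision is limited by the number of arrays, and no detection flags were used.

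Gene names came from the platform annotation (33653 features with 1 gene, 56 with several, 11511 not listed), with symbols updated by gene number in RefSeq for GRCm38.p6 (99.6% matched). Where 8 or more spots shared gene and accession, their median was used (217 probes). Sunitinib was compared with vehicle by lmFit and eBayes in limma 3.58.1 (R 4.3.3) on all 43154 probe rows, with Benjamini-Hochberg adjustment over them and a threshold of 0.05. The fit was tested on simulated data. Replicates are not stated to be separate animals, so the p-values rest on a spread among samples that may be technical only. The array numbers in the titles place vehicle first and sunitinib second on each slide, and the number on the slide thus cannot be told apart from treatment.

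The members, gene lists and alternatives were chosen with earlier results of these data known. Named were all members, up to 4 genes per pathway list (smallest p among those without overlap, of the same sign on both slides and an absolute difference of at least 0.3), the brightest gene of each marker list and the nearest genes to 2 members. Array titles put same-numbered replicates on 1 slide, which pairs them, and their deviations from the group means correlated at -0.225. The slide as a block was an alternative, as were the array left out, the normalization, dim rows, the prior, the probe rule, repeated spots, a floor at the 5th percentile and, chosen after seeing the data, subtraction of a smooth positional trend (the median in a window of 21 by 21 features, with 85 columns inferred from feature numbers).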

Additional observations from a re-analysis of the deposited data

How the results depend on the processing

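Over the 15 alternatives, 130 of 135 differences of the TGF-beta genes kept their direction and none passed. Many of these differences had no room to change direction. The slide block, the prior, leaving out dim rows and the brightest-probe rule do not alter a difference. Median centring and the floor also left these differences as they were, and taking every spot apart changed only Tgfb1. Sign changes came without 1 array for Tgfbr3 (-0.155 to 0.055), Smad2 (-0.23 to 0.11) and Tgfbr1 (-0.77 to 0.05), and for Smad3 with the mean of its probes (0.038). With the slide as a replicate block the differences stay the same by construction, 3 TGF-beta rows had an unadjusted p under 0.05 and 0 rows of the array passed, which ended the Xist call and changed no other. On the whole array 0 rows passed without any 1 array and with the mean of probes, 2 with arrays centred on the median, 6 with a trended, robust prior, 4 with the position trend removed and 4 with that and the block. TGF-beta rows without overlap numbered 8 to 12 of 14 without 1 array, since fewer arrays overlap less. They numbered 4 of 9 with the mean of probes and 13 of 23 with every spot as its own row. No share over all rows is given for these settings, so these counts are not read as a result about the TGF-beta genes. The count of TGF-beta rows at an unadjusted p under 0.05 was 2 without vehicle replicate 1 and with the trended, robust prior (where Tgfbi had 0.112). With every spot apart, 5 of 23 rows had an unadjusted p under 0.05, since Tgfb1 then counts 10 times, and no share over all spots is given beside it. The count of equal signs on both slides cannot be made without 1 array. Low signal limits Tgfb2, Tgfbr3 and Smad3, whose probes lie at or below the 75th percentile of rows.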

Other observations

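The array of sunitinib replicate 2 held more lone low values than the others. The brightest probe of a gene read at least 0.4 below all other arrays (a gap chosen after seeing Tgfbr1) for 3.37% of 19087 genes on that array and 1.03% on sunitinib replicate 1, against 1.46% on vehicle replicate 1 and 0.466% on vehicle replicate 2. Of the TGF-beta genes, Tgfbr1 was 1 such gene. Of the other genes named as lower, Smad1, Pdgfrb, Mmp14, Fst, Snai1, Kcnj8 and Gdf9 also met this rule on the array of sunitinib replicate 2.

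Differences between arrays of a slide also followed position. Over all features the difference at a feature and the one 85 feature numbers further on correlated at 0.156 on slide 1 and 0.272 on slide 2, while at 42 numbers the values were -0.016 and 0.004. These correlations are across features of the same arrays and are given as a description.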
